A study of Homo sapiens with 2 samples.

Results

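The genes described here form the MYC, MAX and MXD network, a set of transcription factors that compete for a common partner. They were chosen by name: MYC, MYCN and MYCL as activators, MAX as the shared partner, MXD1, MXD3, MXD4, MXI1 and MNT as antagonists, and MLX as the partner of a parallel branch. Of these 10 genes, 9 had a probe set that names 1 gene, out of 22465 such genes on the array. All 9 were above the signal filter, which kept 14373 genes whose higher value of the 2 arrays reached 5.55, the median of all values. MXD4 shares its probe set with a miRNA gene and was not analysed here, so 4 of the 5 antagonists were measured.

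The data come from IGROV1-R10, a line of human ovarian carcinoma cells selected from IGROV1 for resistance to cisplatin. One culture was transfected with a miR-491-5p duplex and the other with a control miRNA duplex, each at 20 nM and 24 hours after seeding. Total RNA of each culture, 100 ng, was hybridised to 1 Affymetrix whole-transcript array. The time from transfection to RNA extraction is unknown here, and no untransfected culture was compared, so a response to duplex transfection shared by both cultures is not seen in these differences. With 1 array per group there is no spread between cultures, no difference was tested and no p-value is given. Levels are given as log2 signals. A difference is the log2 level with miR-491-5p minus the log2 level with the control miRNA, and folds are powers of 2 of it. In bulk RNA, fewer cells of a kind and less RNA per cell cannot be told apart.

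MYC proteins bind DNA only as dimers with MAX, through a basic helix-loop-helix leucine zipper, and they prefer the E-box CACGTG. MXD1, MXD3, MXD4, MXI1 and MNT also dimerise with MAX on E-boxes, but they recruit the SIN3 corepressor with its histone deacetylases, so they oppose MYC at shared genes. In proliferating cancer cells MYC is best known for raising ribosome production, nucleotide and polyamine synthesis and cell cycle entry. Its mRNA and protein are both short-lived. MLX takes the place of MAX in a glucose-sensing branch with MLXIP (MondoA) and MLXIPL (ChREBP).

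The delivered duplex mimics hsa-miR-491-5p, encoded at chr9:20716120-20716141 on the plus strand of GRCh38.p14, and its RefSeq mature sequence is shown because it defines the treatment. Capitals mark the seed, bases 2 to 8, which pairs with target mRNAs.
hsa-miR-491-5p: aGUGGGGAacccuuccaugagg
A site paired with the whole seed would read uccccac on an mRNA. Transcript sequences were not used here, so no member was searched for such a site.

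The E-box is shown in the promoters of members and targets that carry it, since it is the DNA element over which the network competes. RefSeq promoters (GRCh38.p14, 250 bases before to 50 after the start the table gives) were searched for CACGTG, which reads the same on both strands. Of the 9 measured members, 8 were in the promoter table, and MNT and MLX held the motif (25.0%), against 9.77% of 10188 promoters of genes above the filter and 7.43% of all 27305 promoters. MXD1, MXD3, MXI1, MYCN and MYCL had no such letters in this window, nor had MAX, whose given start lies 412 bases inside the RefSeq gene. The promoters of MYC and of the ribosome genes BOP1, RRP12 and TCOF1, named below, were not analysed here. The MNT motif starts at position -193 and the MLX motif at -50, counted from +1 at that start. Below, capitals mark CACGTG in both members and in the gene with the most negative difference among those with the motif in an analysed promoter in each of 3 lists of MYC-induced genes.
MNT promoter, chr17:2401011-2401310, minus strand: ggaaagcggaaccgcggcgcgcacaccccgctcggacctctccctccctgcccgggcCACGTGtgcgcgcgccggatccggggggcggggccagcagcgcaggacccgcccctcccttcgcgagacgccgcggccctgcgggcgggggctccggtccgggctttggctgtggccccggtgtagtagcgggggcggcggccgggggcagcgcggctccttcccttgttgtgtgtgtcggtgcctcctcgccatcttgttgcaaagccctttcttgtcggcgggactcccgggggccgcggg
MLX promoter, chr17:42566850-42567149, plus strand: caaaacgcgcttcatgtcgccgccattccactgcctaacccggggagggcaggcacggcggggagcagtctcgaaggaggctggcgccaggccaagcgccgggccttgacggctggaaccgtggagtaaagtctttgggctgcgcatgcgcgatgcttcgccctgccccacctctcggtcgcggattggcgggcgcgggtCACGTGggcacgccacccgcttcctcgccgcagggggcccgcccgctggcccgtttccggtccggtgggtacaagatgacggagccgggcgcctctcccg
WDR43 promoter, chr2:28894417-28894716, plus strand: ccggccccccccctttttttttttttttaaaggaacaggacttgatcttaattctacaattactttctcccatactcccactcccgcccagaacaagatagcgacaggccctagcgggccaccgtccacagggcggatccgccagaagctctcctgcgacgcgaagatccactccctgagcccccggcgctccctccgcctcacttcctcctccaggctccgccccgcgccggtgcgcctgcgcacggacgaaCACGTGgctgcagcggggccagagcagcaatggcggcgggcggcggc
SLC7A5 promoter, chr16:87869458-87869757, minus strand: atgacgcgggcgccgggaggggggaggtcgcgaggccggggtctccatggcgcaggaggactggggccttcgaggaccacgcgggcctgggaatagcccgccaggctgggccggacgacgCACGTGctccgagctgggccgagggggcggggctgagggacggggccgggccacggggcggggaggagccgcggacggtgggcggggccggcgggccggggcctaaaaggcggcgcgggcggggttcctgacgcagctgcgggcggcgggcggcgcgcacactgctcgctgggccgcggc
CDK4 promoter, chr12:57752261-57752560, minus strand: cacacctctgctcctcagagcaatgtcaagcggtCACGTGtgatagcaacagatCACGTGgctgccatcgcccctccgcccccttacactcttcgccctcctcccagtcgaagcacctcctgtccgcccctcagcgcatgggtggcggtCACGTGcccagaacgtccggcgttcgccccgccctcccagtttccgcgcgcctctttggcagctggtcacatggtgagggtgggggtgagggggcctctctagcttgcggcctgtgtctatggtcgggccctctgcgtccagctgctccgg
CDK4 held 3 copies, starting at -216, -196 and -101, and SLC7A5 and WDR43 held 1 each, at -130 and 4. A match is only a description of these letters and no measurement of binding.

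MYC was the one member with a sizeable difference. Its level was 1.45-fold lower with miR-491-5p, whereas the 4 antagonists were 1.04-fold to 1.11-fold higher and the remaining members 1.03-fold to 1.16-fold lower, of which MYCN and MYCL stood at or just above 0 after the differences were centred on their median. Differences over all genes had a median of -0.07 and a middle 95% from -0.68 to 0.37, so every member lay inside that range. The SD of the differences over genes, from the median absolute deviation, was 0.193. As deposited, MYC and MLX had differences larger than it in size, and after median centring or a loess correction on signal, MYC and MNT did.

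**Figure D1:**
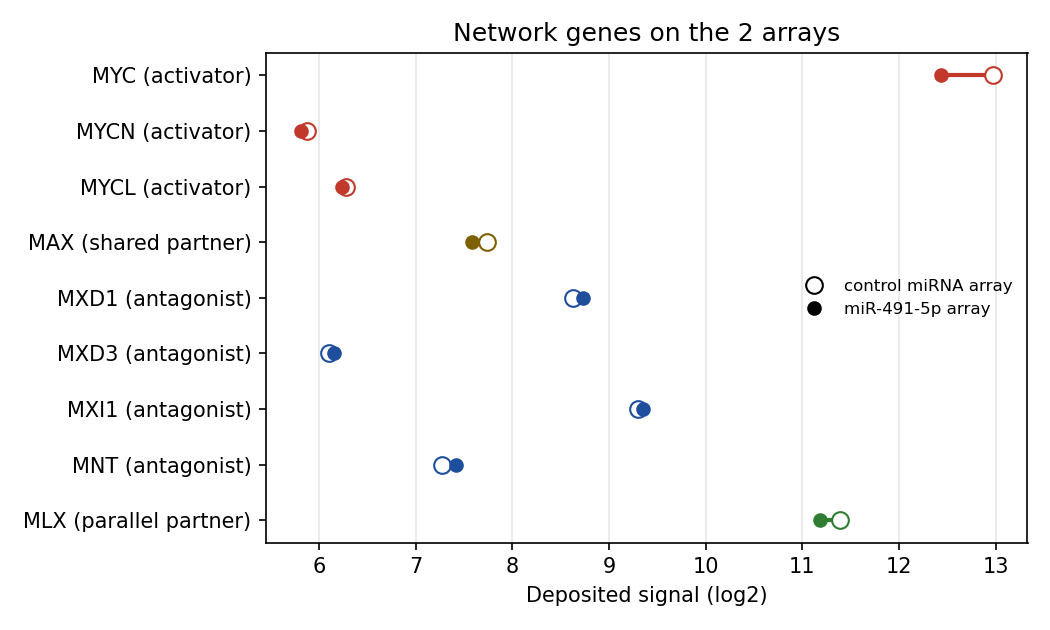
Deposited log2 signal of the 9 measured network genes (horizontal axis) on the control miRNA array (open circles) and the miR-491-5p array (filled circles), coloured by role, with 1 array per group and no error bars. The MYC line is the longest (12.97 to 12.43), and the filled circles of the 4 antagonists lie to the right of the open ones.

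Among the activators, MYC, the family member active in most dividing cells, read 12.43 on the miR-491-5p array and 12.97 on the control array, a difference of -0.54. MYCN, known from the nervous system and neuroblastoma, read 5.81 against 5.88, and MYCL, known from lung cancer, read 6.24 against 6.28. Both therefore stood close to the filter on each array, with differences of -0.07 and -0.04 that match the median of all genes to within 0.03. MYC's difference was equalled or exceeded downwards by 655 of the 14373 genes (4.56%). Among the 3591 genes with the highest signal, to which MYC belongs, 6.18% had a lower difference, and the middle 95% ran from -0.82 to 0.39.

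Of the 9 members, 1 had a difference below -0.32 and none had one above 0.32, while 12.6% of genes lay below -0.32 and 3.37% above 0.32. A count of 1 in 9 is near that background. None reached 1.5-fold, which 3.62% of genes did downwards and 0.675% upwards.

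MAX, the obligate partner of MYC and of the antagonists, read 7.58 against 7.74, a difference of -0.16. That value lies among the lower differences, with 31.0% of genes below it. MLX, the partner of the glucose-sensing factors, read 11.18 against 11.39, a difference of -0.21 with 23.0% of genes below it. Both partners were thus slightly lower with miR-491-5p, by amounts common among genes.

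The antagonists all had positive differences. MNT, a broadly expressed repressor that binds MAX in dividing and resting cells alike, read 7.42 on the miR-491-5p array and 7.27 on the control array, a difference of 0.15. MXD1, which rises in many cells as they differentiate, read 8.73 against 8.63, and MXI1 read 9.35 against 9.30. MXD3, the family member known from S phase, read 6.16 against 6.10, as close to the filter as MYCL. The differences of the last 3 were 0.10, 0.05 and 0.06. Each antagonist was higher on the miR-491-5p array, although 33.5% of all genes had a positive difference, and 11.7% of genes had a larger one than MNT and 24.2% than MXI1. As deposited, all 4 differences were smaller than the SD over genes of 0.193, whereas MNT reached 0.22 after centring.

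**Figure D2:**
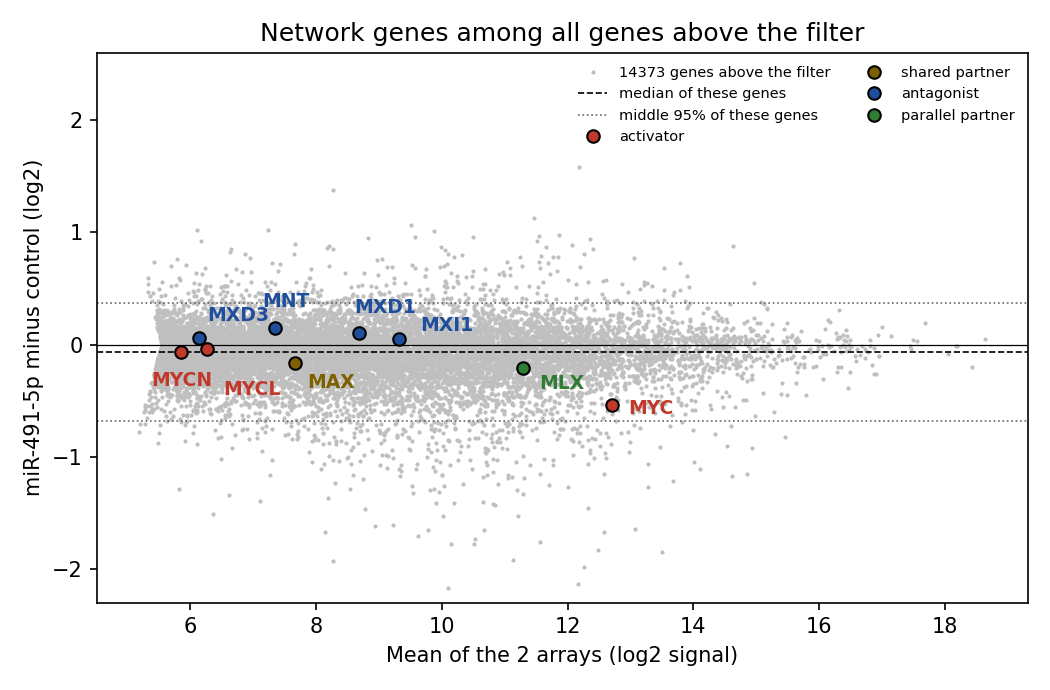
Difference between the arrays (miR-491-5p minus control, log2) against the mean log2 signal of both arrays for 14373 genes above the filter (grey), with the 9 network genes coloured by role, the median of all genes (dashed, -0.07) and their middle 95% (dotted). The antagonists lie just above 0, MAX and MLX just below the median, and MYC at -0.54 near the lower dotted line.

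Set against each other by role, the 3 activators had a median difference of -0.07 (range -0.54 to -0.04) and the 4 measured antagonists a median of 0.08 (range 0.05 to 0.15). The gap between these medians was 0.15. In all 12 pairs of 1 antagonist and 1 activator the antagonist had the higher difference, and the ranges did not overlap. These pairs only cross 3 values with 4 and are not replicates, and MYCN, MYCL and MXD3 stood close to the filter. MYCN (-0.07) and MYCL (-0.04) lay beside the median of all genes (-0.07), so their pairs mainly restate that the antagonists were above 0. Of all genes, 33.5% were above 0. However, the lowest antagonist and the highest activator were only 0.09 apart. Relative to each antagonist, the MYC signal was lower on the miR-491-5p array by more than its own difference: the change in MYC minus antagonist was -0.69 for MNT, -0.64 for MXD1, -0.60 for MXD3 and -0.59 for MXI1. The change in MYC minus MAX was -0.38.

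The sign of the smallest differences depended on the scaling. Centring the differences on their median added 0.07 to each. It left MYC at -0.47, MAX at -0.09 and MLX at -0.14, and it put MYCN at 0.00, MYCL at 0.03 and the antagonists between 0.12 and 0.22. Hence 5 of the 9 members were below 0 as deposited and 3 after centring, against 64.8% and 49.0% of all genes. The order of the members cannot move under a constant shift, and counts below 0 in what follows are as deposited unless centring is named. After a loess correction on signal, MYC was at -0.47, MYCN at 0.01, MYCL at 0.03 and the antagonists between 0.12 and 0.21.

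**Figure D3:**
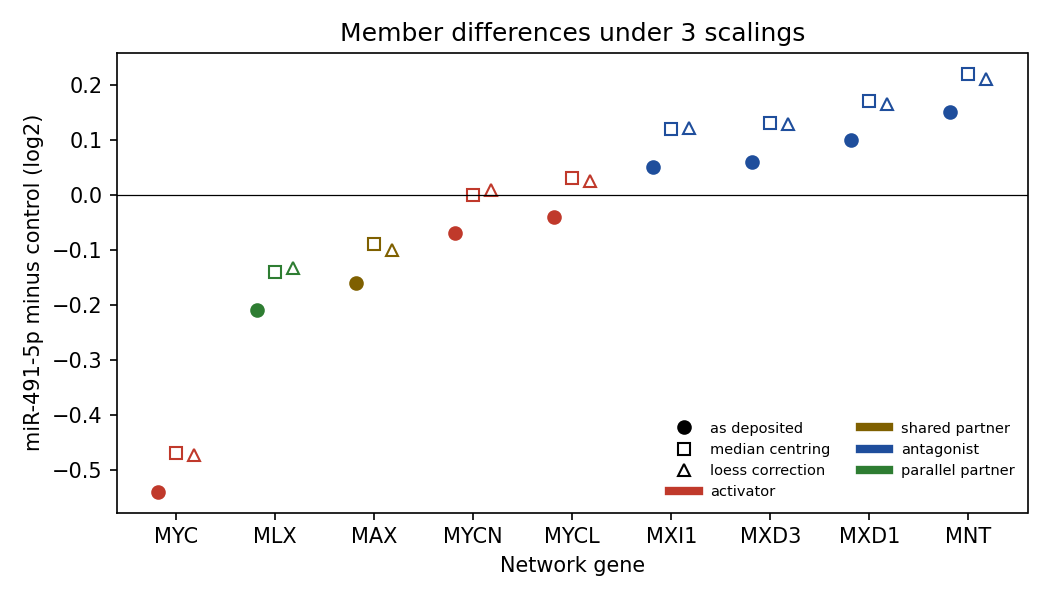
Difference of each network gene (miR-491-5p minus control, log2) as deposited (filled circles), after median centring (open squares) and after a loess correction on signal (open triangles), coloured by role. MYC stays between -0.54 and -0.47, the antagonists stay above 0, and MYCN and MYCL lie on either side of 0 depending on the scaling.

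Beyond the 9 members, the network includes MGA and the MondoA proteins. MLXIP, the glucose-sensing partner of MLX in most tissues, was 1.41-fold lower (9.37 against 9.87). Its liver and fat counterpart MLXIPL read 7.10 against 7.0. MGA, a very large MAX partner that recruits the PRC1.6 repressor complex, read 11.02 against 11.16. MLXIP was therefore close to MYC in size, with MLXIPL and MGA at 0.10 and -0.14. Among 7 measured genes that MondoA and MLX are known to control, 5 were below 0, near the 64.8% of all genes. Of these 7, 3 were below -0.32 and 1 above 0.32, against 12.6% and 3.37% of all genes, with a median of -0.31. The arrestin-domain genes ARRDC4 and ARRDC3 stood at opposite ends, with differences of -0.58 and 0.49. KLF10, a zinc finger repressor, differed by -0.44 and the hexokinase HK2 by -0.43. TXNIP, the best-known MondoA target, read 11.19 against 11.16.

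The repressor machinery showed small differences. Of 14 measured genes of the SIN3 complex, through which MXD proteins and MNT repress, 9 were below 0 (3 after centring) and 5 above, with a median of -0.02. Of all genes, 64.8% were below 0 (49.0% after centring), 33.5% above 0, 12.6% below -0.32 and 3.37% above 0.32. SIN3A itself differed by -0.07 and SIN3B by 0.06. None was below -0.32, and SUDS3, a SIN3 subunit, was the 1 gene above 0.32 (9.89 against 9.40). RBBP4, a histone chaperone, differed by 0.13, and BRMS1 and ING2, both subunits, by -0.16. The 8 measured genes of PRC1.6 ran from -0.17 (RYBP) to 0.09 (E2F6), with L3MBTL2 at -0.11, CBX3 at -0.09 and a median of -0.06. Of 6 measured genes through which MYC represses, ZBTB17 (MIZ1) differed by -0.18, NFYB by 0.12, SP1 by 0.09 and DNMT3A by -0.07.

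Coactivators of MYC differed little. Of 13 measured, 10 were below 0 (7 after centring), with a median of -0.12. None was below -0.32 and 1 was above 0.32. The shares of all genes were 64.8% below 0 (49.0% after centring), 12.6% below -0.32 and 3.37% above 0.32. The AAA+ ATPase RUVBL1 differed by -0.30, the remodeller EP400 by -0.23 and the nucleosome remodelling subunit BPTF by 0.20. SMARCB1, a SWI/SNF subunit that binds MYC, was 1.40-fold higher (11.11 against 10.62). Of 15 measured genes that act on MYC protein turnover, 8 were below 0 and 6 above, against 64.8% and 33.5% of all genes, with a median of -0.05. Below -0.32 were 2 of the 15, near the 12.6% of all genes, and none was above 0.32. USP36, a nucleolar deubiquitinase that stabilises MYC, was 1.67-fold lower (9.84 against 10.58), and GSK3A, a kinase, was 1.36-fold lower (10.77 against 11.21). The ubiquitin ligase subunit SKP2 differed by -0.30 and the mitotic kinase AURKA by 0.20, while FBXW7, the ligase subunit that recognises phosphorylated MYC, differed by 0.03.

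Genes that act on the MYC transcript or locus included larger differences. Of 12 measured, 9 were below 0 and 4 below -0.32, against 64.8% and 12.6% of all genes, with a median of -0.14. After centring, 2 of the 12, CCAT1 and IGF2BP1, were below -0.32, against 8.92% of all genes. CCAT1, a long noncoding RNA transcribed upstream of MYC, was 2.77-fold lower (8.05 against 9.52). IGF2BP1, which binds and stabilises MYC mRNA, was 1.43-fold lower (9.07 against 9.59). ELAVL1, a protein that binds AU-rich mRNAs, differed by -0.35 and FUBP3 by -0.33. None of this list was above 0.32.

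Genes next to MYC on chromosome 8 were compared after their values had been seen, in RefSeq's order and above the filter. On the upstream side CCAT1 came first, then PCAT1 (6.57 against 6.59) and LRATD2 (12.03 against 12.20). The first on the downstream side was LINC02912, which passed the filter only through its control value (5.43 against 5.73), followed by the miRNA genes MIR1205 (6.15 against 6.20) and MIR1206 (9.64 against 10.35), both from the PVT1 locus. MYC, CCAT1 and MIR1206 thus differed by -0.54, -1.47 and -0.71, while PCAT1, MIR1205, LRATD2 and LINC02912 differed by -0.02, -0.05, -0.17 and -0.30. Low neighbours were not particular to MYC. Around the other members, neighbours ran from -1.16 (PPT1, near MYCL) to 0.54 (ADD3, near MXI1), with DUSP5, also near MXI1, at -0.83. PVT1 was not analysed here.

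Genes that MYC is known to induce for ribosome production were lower as a group on these 2 arrays. Like the other lists, this list was written with earlier results of these data known, so its counts only describe these arrays. All 19 measured genes were below 0, against 64.8% of all genes, and 11 were below -0.32, against 12.6% of all genes. The list median was -0.37, against -0.07 for all genes. After median centring, 18 were below 0 and 8 below -0.32, against 49.0% and 8.92% of all genes. BOP1, a factor of large subunit processing, was 1.80-fold lower (9.82 against 10.67). RRP12, which acts in ribosomal subunit export, was 1.49-fold lower (9.02 against 9.59), TCOF1, which encodes treacle and serves ribosomal RNA transcription, 1.44-fold (9.27 against 9.80), and LYAR, a nucleolar protein, 1.43-fold (10.01 against 10.53). WDR43, whose promoter is shown above, read 13.22 against 13.72. Nucleolin (NCL, 14.98 against 15.04) differed least.

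Genes of MYC-induced metabolism showed more spread. Of 18 measured, 15 were below 0, 7 below -0.32 and 1 above 0.32, with a median of -0.28, against 64.8%, 12.6% and 3.37% of all genes. These 3 counts were the same after centring, when 49.0% of all genes were below 0 and 8.92% below -0.32. SLC7A5, the large neutral amino acid transporter LAT1 and also a known ATF4 target, was 2.25-fold lower (14.03 against 15.20). PPAT, the first committed enzyme of purine synthesis, was 1.87-fold lower (12.07 against 12.97), and SRM, spermidine synthase, differed by -0.58 (13.69 against 14.27). TYMS, thymidylate synthase, was 1.46-fold higher (13.54 against 12.99). The textbook MYC targets ODC1, ornithine decarboxylase (15.05 against 14.96), and LDHA, lactate dehydrogenase (14.97 against 14.93), had differences of 0.09 and 0.04.

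MYC-induced genes of the cell cycle and of translation had smaller differences. Of 16 measured, 14 were below 0 (12 after centring), against 64.8% of all genes as deposited and 49.0% after centring. However, 2 were below -0.32, near the 12.6% of all genes, and the median was -0.13. CDK4, the G1 kinase whose promoter holds 3 E-boxes, was 1.54-fold lower (13.56 against 14.18). CCND2, a D-type cyclin, differed by -0.36 (6.01 against 6.37), ID2, a helix-loop-helix inhibitor, by -0.22 (5.84 against 6.06) and PA2G4 by -0.20. CCND2 and ID2 stood close to the filter, and after centring CDK4 alone was below -0.32. The promoter of the telomerase gene TERT also holds the motif, and TERT read 6.15 against 6.34, likewise close to the filter.

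Genes that MYC is known to repress lay on both sides of 0. Of 13 above the filter among 15 measured, 6 were below 0 and 7 above, against 64.8% and 33.5% of all genes. The median was 0.01, but 0.08 after centring and -0.08 without the filter. CDKN1B, which encodes the CDK inhibitor p27, was 1.40-fold higher (11.01 against 10.52), and NDRG1 differed by 0.22. GADD45A, a growth arrest gene, was 1.65-fold lower (10.45 against 11.17), and CEBPA differed by -0.21. CDKN1A, the p21 gene, read 7.81 against 7.89. THBS1 and COL1A2 were below the filter on both arrays. TXNIP is counted both here and among the MondoA targets, and HK2 both there and in the metabolic list.

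**Figure D4:**
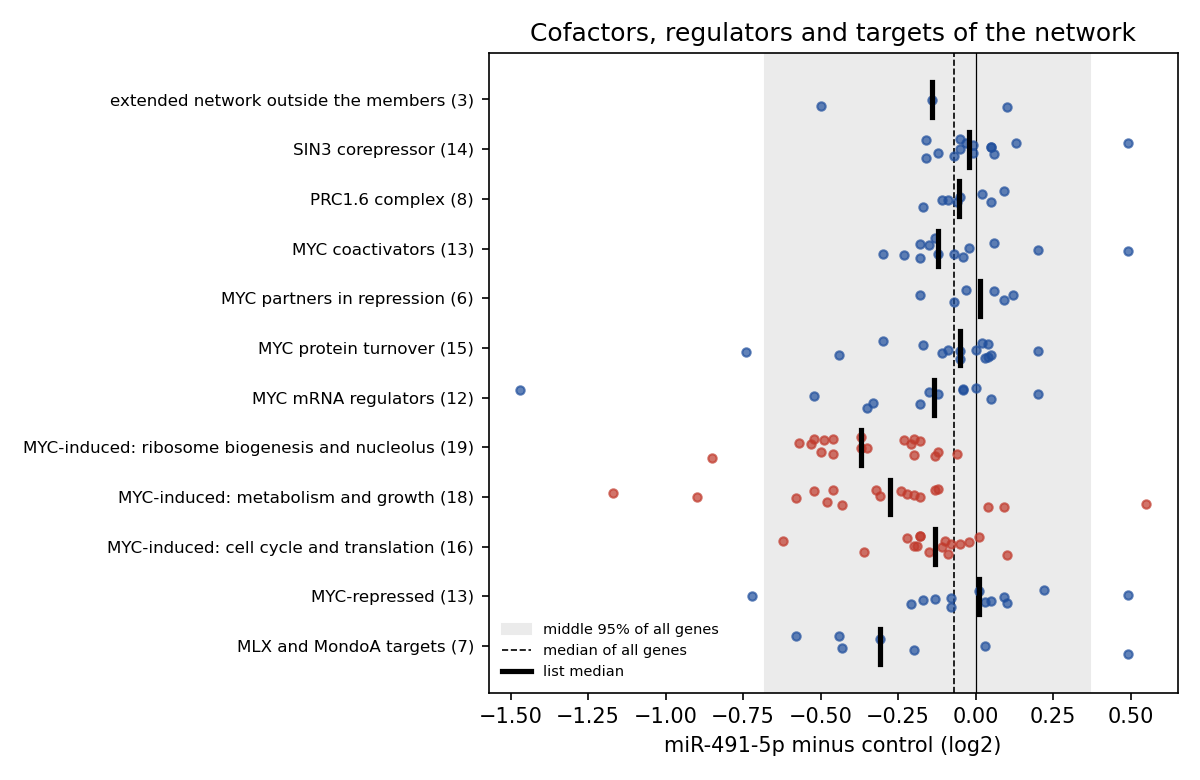
Difference of each gene above the filter (miR-491-5p minus control, log2) in 12 lists of network partners, regulators and targets, with the number of genes in brackets, list medians as black bars, the median of all genes dashed and their middle 95% shaded. The 19 ribosome biogenesis genes lie below 0 as deposited (18 of them after centring) with a median of -0.37, while the SIN3 complex, the PRC1.6 complex and the MYC-repressed genes centre near 0.

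The CACGTG motif stood in a larger share of the promoters of MYC-induced genes than of all genes above the filter, a difference that was not tested. These lists hold genes already known as MYC targets, so the shares describe the lists and not a change on these arrays. Counted over list genes above the filter with an analysed promoter, it was present in 6 of 14 of the ribosome list (42.9%), 5 of 16 of the metabolic list (31.3%) and 7 of 13 of the cell cycle and translation list (53.8%), against 9.77% of all genes above the filter. Promoters of these lists were slightly richer in G and C, with medians of 66.3% to 68.2% against 65.0%. The related E-box CAGCTG was also more frequent in them, at 21.4% to 38.5% against 17.3%. Among the MYC-repressed genes, 1 of 10 promoters held CACGTG. Shares in lists of MYC regulators and partners varied too. The motif was in 3 of 12 promoters of the turnover list (25.0%) and 2 of 9 of the coactivators (22.2%), but in 1 of 13 of the SIN3 complex (7.69%).

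As a check on the labelled cell type, 8 of 9 epithelial and ovarian carcinoma markers and 6 of 11 measured markers of other cell types were above the filter, which 64.0% of all genes passed. PAX8 read 14.59 and 14.77 and EPCAM 13.29 and 12.93 (miR-491-5p and control), but KRT7 was dimmer (6.84 and 6.99). MUC16 (5.94 and 5.89) was near the filter and mesothelin (MSLN) was below it. The macrophage marker CD68, also found in lysosomes of other cells, read 10.54 and 10.76, while PTPRC, PECAM1, VWF, DCN and MLANA were below the filter on both arrays. The keratins KRT18, KRT19 and KRT8 differed by -0.60, -0.53 and -0.44. CD3E, CLDN5, CD68 and GFAP differed by -0.35, -0.25, -0.22 and -0.17. The part of such differences in the MYC result was not tested. Over all genes, 1810 were below -0.32 and 484 above 0.32, against 1282 and 821 after centring.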

How the data were processed

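Total RNA of 2 transfected IGROV1-R10 cultures was labelled as single-strand cDNA and hybridised to 1 array each, per the labels' protocols. Per the submitters' processing notes, RMA produced the deposited log2 values, 1 signal per transcript cluster and array, with 2 decimals. No version, background setting or genome build is recorded in the sources used here. The log base is taken as 2 because RMA gives log2 values. However, the highest values exceed the log2 range that scanner intensities usually span, so a rescaling may be present, and every fold given here would be affected by one. Scanner intensities were not used here, so signal over background is unknown, and the number of arrays limits the precision. Values ran from 2.53 to 19.22 (median 5.51, miR-491-5p) and from 2.58 to 19.18 (median 5.59, control).

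GEO's platform annotation gave exactly 1 gene symbol for 23781 of the 67528 probe sets and several for 1543. Each gene took its probe set with the highest mean of both arrays, and each measured member had 1 such probe set. Genes were kept when the higher value reached 5.55. Differences were taken as deposited and counted past 0.32 (log2), 1.5-fold and 2-fold. The members and the gene lists were chosen with earlier results of these data known. The text names all members and, from each list, the 4 genes above the filter with the largest absolute differences. Further genes were named after their values were seen: SIN3A, SIN3B, FBXW7, TXNIP, NCL, WDR43, ODC1, LDHA, TERT, CDKN1A, PAX8, KRT7, MUC16 and neighbours of MYC, MYCL and MXI1. Also named, as genes below the filter, were THBS1, COL1A2, MSLN, PTPRC, PECAM1, VWF, DCN and MLANA. Where a gene or promoter of a list is not counted as measured, it was not analysed here. Alternatives were median centring, loess on signal (span 0.3), averaging the probe sets of a gene, no filter and a filter on both arrays. The counting was tested on simulated data with known differences. These were larger than that of any member and were counted past 2-fold only, so counts past 0.32 were not covered. Tools were numpy 2.4.6, pandas 2.3.3, statsmodels 0.14.6 and matplotlib 3.10.9 under Python 3.11.15.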

Additional observations from a re-analysis of the deposited data

How the results depend on the processing

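No paired analysis was possible because there was 1 array per treatment, and no replicate could be left out. Of 220 values recomputed under the 5 alternatives, 210 moved by less than 0.193 (the SD over genes, used in place of a replicate spread) or, for counts, stayed within 1.5 times. The other 10 came from the scalings. Median centring gave 821 genes above 0.32, 148 past 1.5-fold and 13 past 2-fold upwards, against 484, 97 and 7 as deposited. The loess correction gave 830, 147 and 13. Under both scalings 1 gene of the MYC-induced cell cycle and translation list was below -0.32, against 2 as deposited, and 3 members were below 0 instead of 5, because each scaling raised the differences. The filters and the mean of probe sets moved no member's difference, since each measured member has 1 probe set and is above the filter on both arrays. Centring added only 0.07 to each difference, less than 0.193, so no difference could count as moved by it. MYCL went from -0.04 to 0.03 and still counted as unmoved. The 210 therefore do not measure how stable small differences are. Depth does not apply to these arrays.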

Other observations

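The CACGTG motif was also set against the differences of all genes with a promoter in the table, as a description with no test, chosen after the data were seen. Of 995 genes above the filter with the motif, 15.4% had a difference below -0.32, against 11.3% of 9193 genes without it. The medians were close, at -0.08 and -0.07. Within tertiles of promoter GC content the shares were 12.6% with and 9.80% without the motif in the lowest, 16.2% and 9.88% in the middle and 16.6% and 14.3% in the highest. For the related E-box CAGCTG the shares were 11.3% with and 11.8% without the motif over all, 8.10% and 10.4% in the lowest tertile, 12.3% and 10.2% in the middle and 13.5% and 14.7% in the highest. Thus CAGCTG also had an excess in the middle tertile, about as large as that of CACGTG in the highest. These genes share 1 pair of arrays, so the shares carry no error between cultures.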
